A study of Mus musculus with 6 samples.

Results

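The genes described here encode the enzymes that carry glucose to pyruvate and lactate and turn pyruvate into acetyl-CoA in mitochondria. They also encode enzymes that rebuild glucose from smaller molecules or divert glucose 6-phosphate into the pentose phosphate pathway. The genes further include the kinases that set the rate of these steps. They were chosen by name, as 40 genes, and every array probe that the platform annotation assigns to one of them was taken. Of the 40 genes, 36 had a probe named here, with 62 probes in all among the 45135 of the array, and 31 had at least 1 probe bright enough to be tested, among 11370 such genes. Hk2, Gpi1, Eno1 and G6pdx had no probe named here and are not analysed.

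Total RNA came from the colon mucosa of 6 mice aged 5 months, on a strain background given as C57/B6, each hybridised to 1 Illumina bead array. All 6 carried APC(Min/+), the Min mutation of Apc that predisposes to intestinal tumours, and Dnmt3a(2lox/2lox), that is, floxed alleles of the de novo DNA methyltransferase Dnmt3a. The 3 Dnmt3a-deleted mice also carried the transgene Fabpl(4x at -132)-Cre(-/+), and the 3 control mice were Fabpl(4x at -132)-Cre(-/-). The transgene promoter derives from a fatty acid binding protein gene and is active in part of the intestinal epithelium. According to the series' design it removed Dnmt3a from 30 to 50% of mucosa cells, so a change in the deleted cells is diluted by the others. Each sample is a separate numbered animal.

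Glycolysis splits glucose into pyruvate in the cytosol, and its main regulated steps are those of hexokinase, phosphofructokinase and pyruvate kinase. Pyruvate is then reduced to lactate by lactate dehydrogenase or oxidised by the pyruvate dehydrogenase complex, which pyruvate dehydrogenase kinases switch off. Colon epithelium is known for burning butyrate from bacterial fermentation in preference to glucose when it matures, while dividing crypt cells and intestinal tumours rely more on glycolysis.

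The arrays had mean signals of 285.3 to 368 in Dnmt3a-deleted and 360.2 to 378.9 in control mucosa, and 19339 to 21296 and 20783 to 21358 probes detected above background. The 3 Dnmt3a probes were detected on 0 arrays, so these arrays do not check the deletion. Of 16 markers of mature colonocytes 15 were measured. Of 16 proliferation markers 12 were measured, 8 higher and 4 lower in Dnmt3a-deleted mucosa, with a median log2 difference of 0.08. Without Dnmt3a-deleted replicate 3, 10 were higher and 2 lower, with a median of 0.35. Over all 11370 genes 6633 were higher, and 6273 without that replicate. Ccna2 and Bub1 were detected on no array. The part of proliferation in the members' differences was not tested. Of 11 small intestinal enterocyte markers 7 were measured, all lower in Dnmt3a-deleted mucosa (6 without Dnmt3a-deleted replicate 3), with summed intensities of 530 to 778 against 553 to 2032, and Fabp1 and Fabp2 were detected on no array. The highest of these sums belonged to control replicate 1, where Apoa1 was at 9.62 against 4.56 to 5.60 elsewhere; their part in the members' differences was not tested. Dnmt3a-deleted replicate 3 stood apart. Its correlation with the other arrays over kept probes was at most 0.9498, while the other 5 correlated with each other at 0.9777 or above. Summed intensity of the colonocyte markers was 61035 on that array, against 93018 to 113280 on the other 5. The brightest markers weigh most in this sum, and the markers did not move together. Car1 was at 11.63 there against 13.62 to 14.29 on the other 5, and Slc26a3 at 10.94 against 8.59 to 9.83. The median deviation of the colonocyte markers was -0.29 there and -0.17 to 0.25 on the other 5. Xist and the Y-linked Eif2s3y marked 2 males and 1 female (replicate 3) among Dnmt3a-deleted mice, and 1 male (replicate 1) and 2 females among controls. Differences that change sign or move by over 1.5 times when Dnmt3a-deleted replicate 3 is left out are given with and without it, and its sex cannot be told apart from what else sets it apart within its group.

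The question for these genes was whether partial loss of Dnmt3a went with a shift in carbohydrate metabolism transcripts. At a Benjamini-Hochberg adjusted p under 0.05 in limma's moderated test, 0 of the 31 measured members passed in either direction, where 1 gene of 11370 (0.0088%) passed, the mucus-associated trefoil factor Tff2, which is no member and is higher in Dnmt3a-deleted mucosa; 0% passed as lower. The smallest adjusted p among members was 0.700. At an unadjusted p under 0.05 the count was 1 member, Eno3, against 5.22% of all genes (3.07% higher and 2.15% lower). Taken probe by probe, 0 of the 48 kept member probes passed at the adjusted threshold and 2 at the unadjusted one, against 0.00472% and 4.89% of the 21183 kept probes. Of the 31 members 13 were higher and 18 lower in Dnmt3a-deleted mucosa, with a median log2 difference of -0.02, beside a median of 0.05 over all genes. The groups did not overlap for 3 members (9.68%), Pkm and Tpi1 on the higher side and Pdhb on the lower side, against 14.5% of all genes (9.22% higher and 5.3% lower). A share at or below that of all genes is not a result about the members. Without Dnmt3a-deleted replicate 3, 17 members were higher and 14 lower, the median was 0.06 beside 0.02 over all genes, 0 passed, and the groups did not overlap for 7 members, Tpi1, Pgam1, Pkm and Ldha on the higher and Pdhb, Dld and Pck1 on the lower side, against 22% of all genes.

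For many of the enzymes the arrays bounded how large a difference could be. The 95% interval of the log2 difference lay between -1 and 1 for 22 of the 31 members, and between -0.5 and 0.5 for 4. Among these narrow intervals were those of Gapdh, the glyceraldehyde phosphate dehydrogenase often used as a loading control (-0.35 to 0.41), and Ldha, the muscle-type subunit of lactate dehydrogenase (-0.34 to 0.44). The 3 mice a group limit this precision, and differences inside these intervals cannot be told from 0. In a bulk sample, fewer cells of a type and less RNA per cell cannot be told apart.

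**Figure D1:**
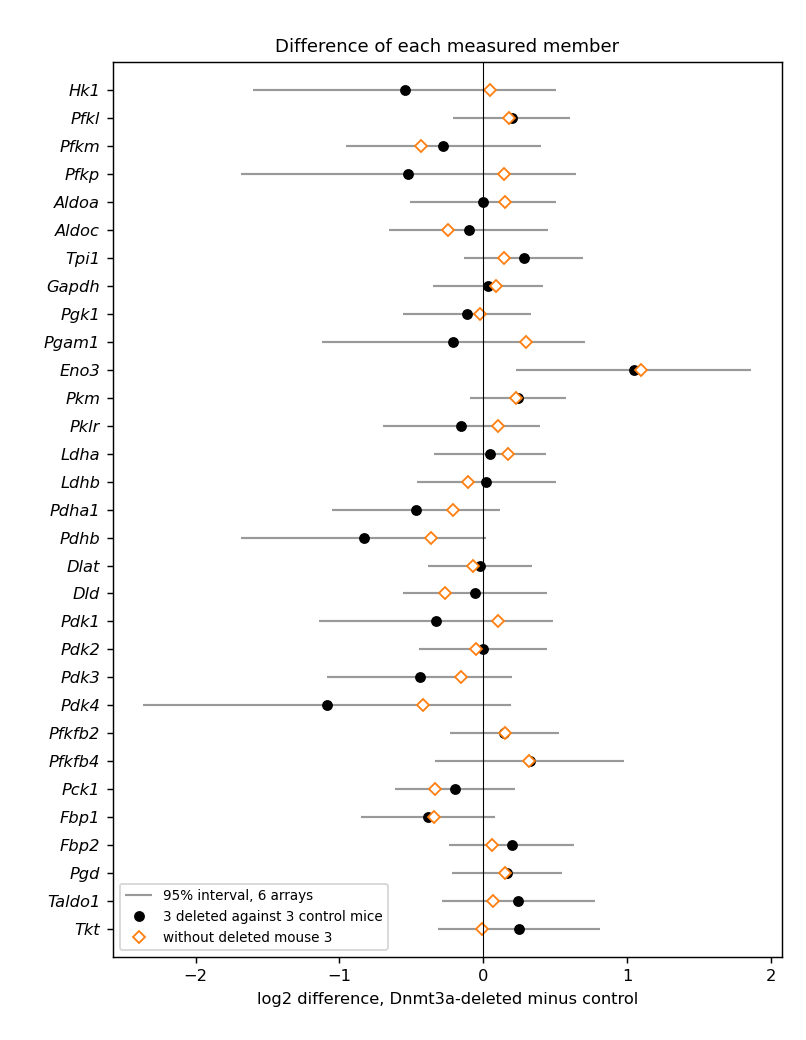
Log2 difference (x axis, Dnmt3a-deleted minus control) of each of the 31 measured members, with its 95% interval by limma (grey line) over all 6 arrays (black points) and without Dnmt3a-deleted replicate 3 (open orange diamonds). Eno3 is the furthest to the right at 1.05 and Pdk4 the furthest to the left at -1.09, and the diamonds of Hk1, Pfkp, Aldoa, Pgam1, Pklr, Ldhb, Pdk1 and Tkt lie on the other side of 0 from their points.

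Entry of glucose into the pathway was represented by Hk1, the hexokinase that binds to mitochondria. Its log2 intensity was 8.44, 8.28 and 6.58 in Dnmt3a-deleted replicates 1 to 3, against 8.33, 8.49 and 8.12 in control replicates 1 to 3. Replicates 1 and 2 of the deleted group lay within the control range and replicate 3 lay far below it. The difference was -0.55 ± 0.46 (SE), and 0.05 without replicate 3. A second, dimmer Hk1 probe gave the same picture, with 6.38, 6.69 and 5.21 in Dnmt3a-deleted and 6.34, 6.58 and 6.53 in control mucosa. Hk3, the hexokinase of myeloid cells, was detected on 2 Dnmt3a-deleted arrays and 0 control arrays, with measured means of 5.30 and 5.00. Its values were 5.15, 5.22 and 5.51 in Dnmt3a-deleted and 5.23, 4.86 and 4.92 in control mucosa, so the groups overlapped. The ratio of measured group means had a lower bound of 1.11-fold, which allows for no spread between mice. Control replicate 1 was undetected at 5.23, above the lowest detected value of that array, 5.10. The 1.11 is thus no firm bound on the fold between groups. Hk3 was too dim to be tested.

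The phosphofructokinases, which commit hexose to glycolysis, differed from one another in how they behaved across mice. Pfkl, the liver-type subunit, was at 11.51, 11.68 and 11.66 in Dnmt3a-deleted and 11.69, 11.30 and 11.26 in control mucosa, a difference of 0.20 ± 0.18. A second, dimmer kept Pfkl probe was at -0.16, and the mean of both probes gave 0.02. Pfkp, the platelet-type subunit, was at 10.78, 11.05 and 8.93 against 10.87, 10.67 and 10.78. The control mice thus lay within a narrow range that both other deleted mice were close to, and deleted replicate 3 was the exception. Its second kept probe showed the same contrast, at 8.17, 8.58 and 5.30 in Dnmt3a-deleted and 8.48, 8.36 and 8.52 in control mice. The Pfkp difference of -0.52 ± 0.50 became 0.14 without replicate 3. Pfkm, the muscle-type subunit, was at -0.28 ± 0.29, and its highest value, 8.09, belonged to control replicate 2, without which the difference was 0.01. The Pfkm difference was -0.43 without deleted replicate 3. Its other kept probes were at 0.34 and -0.32, and the mean of its 3 kept probes gave -0.09.

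Of the other upper glycolytic enzymes, Aldoa, the main aldolase outside liver, had a difference of -0.0038 ± 0.22, and 0.15 without deleted replicate 3. Aldoc, the brain-type aldolase, was at -0.10 ± 0.24, and -0.24 without it. Tpi1, which interconverts the triose phosphates, was at 13.38, 13.34 and 13.77 in Dnmt3a-deleted and at 13.28, 13.28 and 13.09 in control mucosa. All 3 deleted mice thus lay above the 3 controls, by a small margin, with replicate 3 the highest. The difference was 0.28 ± 0.18 or 1.22-fold, and 0.14 without replicate 3, at an adjusted p of 0.700 by limma over all arrays. The mean of its 3 kept probes gave -0.06.

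Lower glycolysis held the widest positive difference of the set. Eno3, the muscle-type enolase that makes phosphoenolpyruvate, was at 11.83, 10.72 and 11.12 in Dnmt3a-deleted mucosa, against 10.14, 9.66 and 10.73 in control mucosa. Deleted replicates 1 and 3 lay above all controls, and deleted replicate 2 lay just under control replicate 3, so the groups overlapped. The means were 11.22 ± 0.56 and 10.18 ± 0.54 (SD, n = 3 each), a log2 difference of 1.05 ± 0.35 (SE) or 2.07-fold, with a 95% interval of 0.23 to 1.86, an unadjusted p of 0.0186 and an adjusted p of 0.700 by limma. Over all 18 alternative settings the Eno3 difference ran from 0.74 to 1.55 and its adjusted p by limma from 0.0786 to 0.929. The 1.55 and the 0.0786 came with array weights, which were 6.04, 0.808 and 0.154 for deleted replicates 1 to 3. The control weights were 1.86, 0.956 and 0.749. That setting thus leaned most on deleted replicate 1, the mouse with the highest Eno3. The difference was 1.10 without deleted replicate 3 and 0.74 without deleted replicate 1. Eno3 has 1 probe on this array, detected on all 6.

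Eno3 is best known from striated muscle, so markers of that tissue were read beside it. Of 11 skeletal muscle markers 5 were measured, with differences between -1.04 and 0.22, and the muscle genes Ckm, Myh4, Tnnt3 and Tnnc2 were detected on no array. Their summed intensity was 497 to 818 in Dnmt3a-deleted mucosa, and 423, 611 and 5253 in control mucosa. The last value came from Acta1, skeletal muscle actin, which reached 12.31 in control replicate 3 while the other arrays read 7.99 to 9.28, and which was picked out after its values were seen. The other measured skeletal muscle markers, Mylpf, Tnni2, Actn3 and Atp2a1, did not share this rise. They read 5.18, 5.54, 5.43 and 5.36 in control replicate 3, none above its highest value on the other arrays. Control replicate 3 also had the highest Eno3 among controls. Of the 10 smooth muscle markers 5 were measured, 4 of them higher in Dnmt3a-deleted mucosa, with a median difference of 0.23 (0.13 without deleted replicate 3) and summed intensities of 493 to 871 against 333 to 444, and Myh11, Myl9 and Lmod1 on no array. Their part in the Eno3 difference was not tested.

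Pkm, the pyruvate kinase of most tissues other than liver and red cells, showed the tightest groups. Its log2 intensity was 13.13, 13.09 and 13.15 in Dnmt3a-deleted and 12.83, 12.94 and 12.88 in control mucosa. The 3 deleted mice lay above the 3 controls, replicate 3 among them, and the standard deviations were 0.03 and 0.05. The difference was nonetheless small, 0.24 ± 0.14 (SE) or 1.18-fold, with an interval of -0.09 to 0.57 and an adjusted p of 0.700. A second Pkm probe was detected on 3 Dnmt3a-deleted and 0 control arrays, with measured means of 5.32 and 5.07. These lie close to the lowest detected values of the arrays, 5.09 to 5.14. Its difference was 0.26 ± 0.15, with an unadjusted p of 0.124 and an adjusted p of 0.699 by limma. The ratio of its measured group means had a lower bound of 1.15-fold, which allows for no spread between mice. For the bright probe the standard error is wider than the standard deviations because limma draws each gene's spread toward that of all genes. Median scaling of the arrays reduced the Pkm difference to 0.09.

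The remaining lower glycolytic enzymes were close to even. Gapdh was at 13.19, 13.30 and 13.07 in Dnmt3a-deleted and 13.22, 13.29 and 12.96 in control mucosa, a difference of 0.03 ± 0.16 (0.09 without deleted replicate 3) that turned to -0.06 with loess and -0.12 with median scaling. Pgk1, the phosphoglycerate kinase that yields the first ATP of the pathway, was at -0.11 ± 0.19, and -0.02 without that replicate. Pgam1, the phosphoglycerate mutase of non-muscle cells, was at 9.41, 9.44 and 7.90 against 9.24, 9.17 and 8.96. Deleted replicates 1 and 2 were thus above the controls and replicate 3 below them, and the difference was -0.21 ± 0.40 over all arrays and 0.30 without that replicate. Pklr, the pyruvate kinase of liver and red cells, was at -0.15 ± 0.24, and 0.10 without it. Pgam2, the muscle mutase, was detected on 1 array of each group and Eno2, the neuronal enolase, on 0 arrays, and neither was tested.

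At the fork of pyruvate, lactate dehydrogenase gave no detectable difference. Ldha was at 13.53, 13.63 and 13.21 in Dnmt3a-deleted and 13.43, 13.43 and 13.38 in control mucosa, a difference of 0.05 ± 0.17, and 0.17 without deleted replicate 3. Its sign was negative with loess (-0.04), with median scaling (-0.09) and with sex as a term (-0.02). Ldhb, the heart-type subunit, was dim, between 5.35 and 5.95 over the 6 arrays, at 0.02 ± 0.21, and -0.10 without that replicate.

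The pyruvate dehydrogenase complex, which turns pyruvate into acetyl-CoA, had 4 of 4 measured members on the lower side, with a median of -0.26 and 0 past the test. Over all genes 4737 of 11370 were lower, and Dlat and Dld of the complex were close to 0. Pdhb, the beta subunit of its first enzyme, was at 9.17, 9.18 and 7.78 in Dnmt3a-deleted mucosa, against 9.63, 9.39 and 9.60 in control mucosa. The 3 deleted mice lay below the 3 controls, replicate 3 by far the most. The difference was -0.83 ± 0.37 (SE) or 0.562-fold, with an interval of -1.68 to 0.02, an unadjusted p of 0.0544 and an adjusted p of 0.700 by limma. Without replicate 3 it was -0.36 and the groups were still apart.

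The other 2 Pdhb probes did not tell one story. One was at 7.19, 7.09 and 7.11 in Dnmt3a-deleted and 7.35, 7.49 and 7.68 in control mucosa, again without overlap (-0.37). The other was at 7.13, 6.96 and 7.63 against 6.58, 6.51 and 8.52, with control replicate 3 the highest of all (0.04). Pdha1, the catalytic alpha subunit, encoded on the X chromosome, was at 11.16, 11.52 and 10.57 against 11.42, 11.74 and 11.49. Deleted replicate 2 lay inside the control range and the other deleted mice below it, a difference of -0.47 ± 0.25. It was -0.21 without deleted replicate 3 and -0.56 with sex as a term. Dlat, the acetyl transferase core, and Dld, the dehydrogenase shared with other complexes, were at -0.02 ± 0.16 and -0.06 ± 0.22, and at -0.07 and -0.26 without deleted replicate 3. Both turned positive with sex as a term (0.01 and 0.08), and Dlat also with array weights (0.02).

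Of the kinases that switch the complex off, 4 of 4 were on the lower side, Pdk2 by only -0.0031, with a median of -0.39 and 0 past the test. Without deleted replicate 3 the count was 3 of 4 and the median -0.10. Over all genes 4737 of 11370 were lower, so these small counts are not read as a shared decrease. Pdk4, the kinase raised by fasting and fatty acids through PPAR receptors, was at 6.96, 7.12 and 5.03 in Dnmt3a-deleted and 7.68, 6.83 and 7.85 in control mucosa. Replicates 1 and 2 of the deleted group lay between control values and replicate 3 was not above background. The log2 difference was the widest negative one of the members, -1.09 ± 0.55 (SE) or 0.471-fold, with an interval of -2.36 to 0.19 and an adjusted p of 0.700, and it was -0.42 without replicate 3. Over the alternative settings that gave a value it ran from -1.48 with sex as a term to -0.42, and with the authors' own normalized values it was -0.67. Pdk1, a kinase induced by hypoxia, was at 9.10, 9.21 and 7.87 against 9.02, 9.29 and 8.87, or -0.33 ± 0.35, and 0.10 without replicate 3. Pdk3, on the X chromosome, was at -0.44 ± 0.28, with -0.15 without deleted replicate 3 and -0.65 with sex as a term. Pdk2, the widely expressed kinase, was at -0.0031 ± 0.19, with -0.05 without that replicate and 0.03 with sex as a term.

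**Figure D2:**
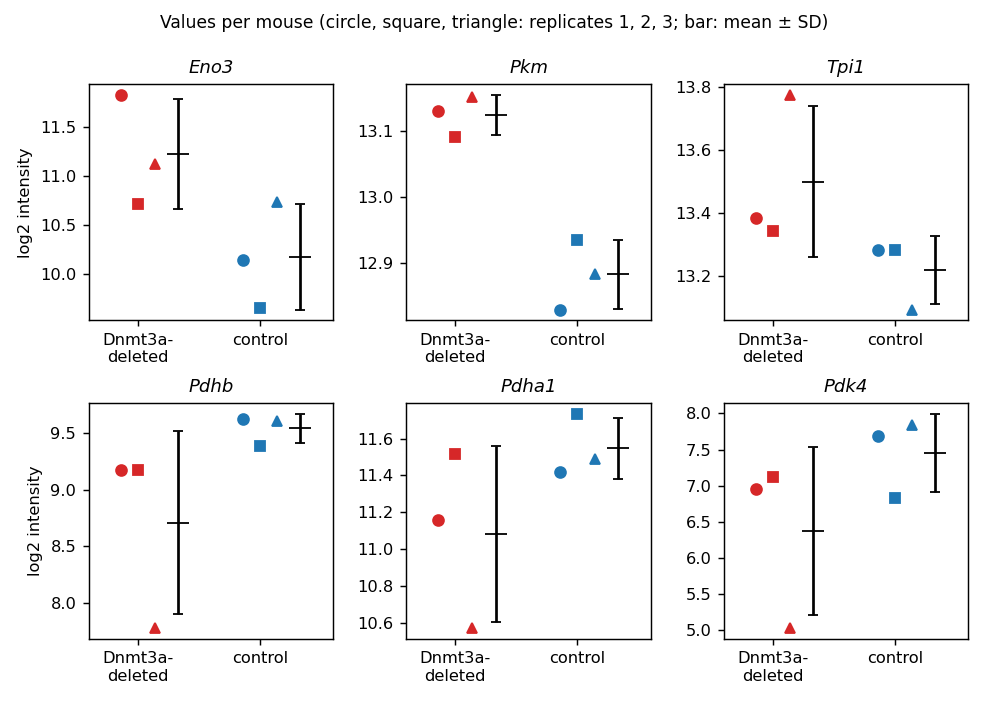
Log2 intensity (y axes, each with its own range) of 6 members in each mouse, Dnmt3a-deleted in red at left and control in blue at right, with the mean and SD of each group as a black bar. Pkm and Tpi1 show the 3 deleted mice above the 3 controls and Pdhb shows them below; in Pdhb, Pdha1 and Pdk4 the triangle of deleted replicate 3 is the lowest of the 6 points.

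Several members set the level of fructose 2,6-bisphosphate, the signal that speeds phosphofructokinase and brakes gluconeogenesis. Pfkfb2, the heart-type enzyme, was at 0.15 ± 0.16 and Pfkfb4, a form known from testis and tumours, at 0.32 ± 0.28, both higher with and without deleted replicate 3. A second, dimmer kept probe of Pfkfb4 was on the other side, at -0.15. Under median scaling Pfkfb2 was at -0.03. For Pfkfb4 the spread came from the controls, at 8.63, 9.17 and 8.02, around deleted values of 9.08, 8.76 and 8.93. Pfkfb3, the inducible form, was detected on 1 array of each group and was not tested.

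Enzymes of gluconeogenesis were dim with 1 exception. Pck1, cytosolic phosphoenolpyruvate carboxykinase, was at 5.12, 4.98 and 5.47 in Dnmt3a-deleted and 5.44, 5.45 and 5.26 in control mucosa, detected on 1 and 3 arrays, a difference of -0.19 ± 0.18, and -0.33 without deleted replicate 3. Fbp1, the liver-type fructose bisphosphatase, was at 5.09, 5.67 and 5.26 against 5.89, 5.74 and 5.54, likewise detected on 1 and 3 arrays, a difference of -0.38 ± 0.20. Deleted replicate 2 lay within the control range of Fbp1 and the other deleted mice below it. Fbp2, the muscle-type fructose bisphosphatase, was well above background on all arrays, at 11.53, 11.84 and 12.09 against 11.58, 11.56 and 11.74, a difference of 0.20 ± 0.19, and 0.06 without deleted replicate 3. Pck2, the mitochondrial carboxykinase, was detected on no array.

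The pentose phosphate members were 3 of 3 on the higher side, where 6633 of all 11370 genes were higher, with a median of 0.24. Without deleted replicate 3 the count was 2 of 3 and the median 0.07. Tkt, transketolase, was at 11.63, 11.53 and 12.34 in Dnmt3a-deleted and 11.76, 11.61 and 11.39 in control mucosa. Replicate 3 supplied the difference of 0.25 ± 0.24, which was -0.01 without it and -0.04 as the mean of its 3 kept probes. Taldo1, transaldolase, was at 12.21, 12.64 and 12.96 against 12.60, 12.32 and 12.16, or 0.24 ± 0.23, and 0.07 without replicate 3. Pgd, which makes NADPH, was near background, at 0.16 ± 0.16, detected on 2 Dnmt3a-deleted arrays and 1 control array.

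Across the 31 members, 1 mouse carried most of the spread. Dnmt3a-deleted replicate 3 was the lowest of the 6 arrays for 12 members (38.7%, against 27.4% of all genes) and the highest for 9 (29%, against 40.1%). It lay more than 1 log2 unit below the mean of deleted replicates 1 and 2 for 6 members, Hk1, Pfkp, Pgam1, Pdhb, Pdk1 and Pdk4, which is 19.4% against 6.01% of all genes, and more than 1 unit above it for 0 members against 5% of all genes. Its median distance from the mean of the other deleted mice was 0.41 over members and 0.38 over all genes, while those 2 mice differed from each other by a median of 0.16 and 0.17. These shares were chosen for description after the values were seen and carry no test.

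**Figure D3:**
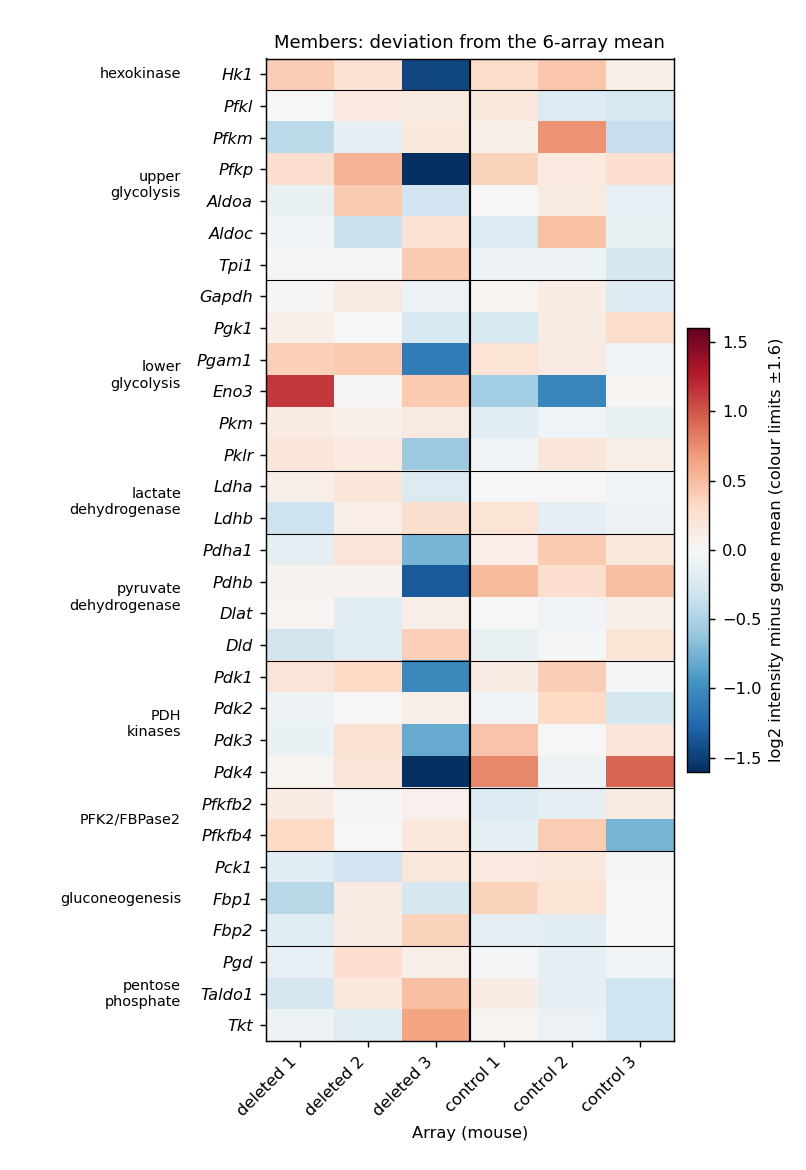
Deviation of each measured member (rows, grouped by role) from its mean over the 6 arrays, in log2 units (colour, limits at ±1.6), with the Dnmt3a-deleted mice left of the black line and the control mice right of it. Column 3, Dnmt3a-deleted replicate 3, holds the dark blue cells of Hk1, Pfkp, Pgam1, Pdhb, Pdk1 and Pdk4, and Eno3 is the row that differs most among the other 5 mice.

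On that array the probes of 1 gene also parted from each other. For 13 members with several kept probes, the widest gap between probes, each measured from its own 6-array mean, was found on deleted replicate 3 for 8 of them, and the gap exceeded 1 log2 unit there for 5 members, Pfkp, Tpi1, Pgam1, Pdhb and Tkt. On the other 5 arrays it exceeded 1 unit for 1 member on 1 array, Pdhb in control replicate 1. Over 4271 genes with several kept probes the widest gap fell on deleted replicate 3 for 64.1%, and the gap passed 1 unit for 24% there, against 0.14 to 1.12% on the other arrays.

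Tpi1 is the clearest case. Its brightest probe and the next, at 12.37 in deleted replicate 3, were both highest on that array, while the dimmest was lowest there, at 4.62 against 6.11 to 6.58 on the other 5 arrays. For Pgam1 the bright probe was lowest on that array and the dim one highest, at 6.28 against 5.74 to 6.06. Of the 13 members with several kept probes, 5 had differences of 1 sign over all of them, Hk1, Pfkp, Pgk1, Pkm and Pfkfb2. The other 8 had mixed signs, Pfkl, Pfkm, Tpi1, Pgam1, Pklr, Pdhb, Pfkfb4 and Tkt. What sets this array's probes apart was not tested.

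Because the deleted gene is a DNA methyltransferase, which acts on CpG dinucleotides, the promoter windows of the members were read for them. RefSeq windows on GRCm38.p6, 250 bases before to 50 after each gene's start, were matched by symbol for 40 of 40 members, 58 windows in all. The 4 shown, 5′ to 3′ on the gene's strand with every CpG in capitals, are those of the widest positive and negative differences and of the members with non-overlapping groups and a single window. They lie at chr11:70656926-70657225 (plus strand, Eno3), chr6:5496229-5496528 (minus strand, Pdk4), chr14:8172943-8173242 (minus strand, Pdhb) and chr6:124814109-124814408 (minus strand, Tpi1).
Eno3: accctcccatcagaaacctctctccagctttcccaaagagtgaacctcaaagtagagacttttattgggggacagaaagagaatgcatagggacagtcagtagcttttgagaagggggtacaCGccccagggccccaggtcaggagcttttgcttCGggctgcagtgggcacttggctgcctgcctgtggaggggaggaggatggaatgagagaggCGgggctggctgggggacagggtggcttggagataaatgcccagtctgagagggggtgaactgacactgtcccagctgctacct
Pdk4: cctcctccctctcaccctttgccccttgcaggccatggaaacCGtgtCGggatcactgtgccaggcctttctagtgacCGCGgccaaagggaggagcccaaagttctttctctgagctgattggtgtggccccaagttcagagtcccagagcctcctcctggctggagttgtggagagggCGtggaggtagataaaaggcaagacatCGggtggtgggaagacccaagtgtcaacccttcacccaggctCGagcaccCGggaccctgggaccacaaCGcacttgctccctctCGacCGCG
Pdhb: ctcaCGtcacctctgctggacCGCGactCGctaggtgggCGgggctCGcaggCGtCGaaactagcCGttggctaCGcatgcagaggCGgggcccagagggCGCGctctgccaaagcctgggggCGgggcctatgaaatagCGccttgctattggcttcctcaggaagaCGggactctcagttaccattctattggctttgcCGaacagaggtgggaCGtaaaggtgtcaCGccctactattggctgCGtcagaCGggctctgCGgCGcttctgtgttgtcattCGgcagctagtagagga
Tpi1: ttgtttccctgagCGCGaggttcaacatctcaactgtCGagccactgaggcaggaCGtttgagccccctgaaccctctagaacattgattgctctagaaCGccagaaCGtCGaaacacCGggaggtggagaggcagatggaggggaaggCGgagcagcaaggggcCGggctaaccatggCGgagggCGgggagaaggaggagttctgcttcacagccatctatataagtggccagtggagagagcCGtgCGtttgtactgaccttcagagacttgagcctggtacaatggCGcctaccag

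The windows printed above hold 3 CpGs for Eno3, 12 for Pdk4, 24 for Pdhb and 15 for Tpi1. Member windows ranged from 0 to 35 CpGs with a median of 15.5, against a median of 7 over all 32851 windows of the table, and 24 of 58 had 20 or more, against 26.5% of all windows. Windows with 3 or fewer CpGs, like that of Eno3, make up 31.4% of the table. Taking each gene's window with the most CpGs, the 16 measured members with 20 or more had a median log2 difference of -0.06 and the 15 with fewer had -0.02, beside 0.06 and 0.05 for all measured genes split the same way. Spearman's rho between CpG number and log2 difference was -0.13 over 31 members and 0.03 over 9201 genes; the points share the same 6 arrays, and no test was made. Methylation itself was not measured.

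**Figure D4:**
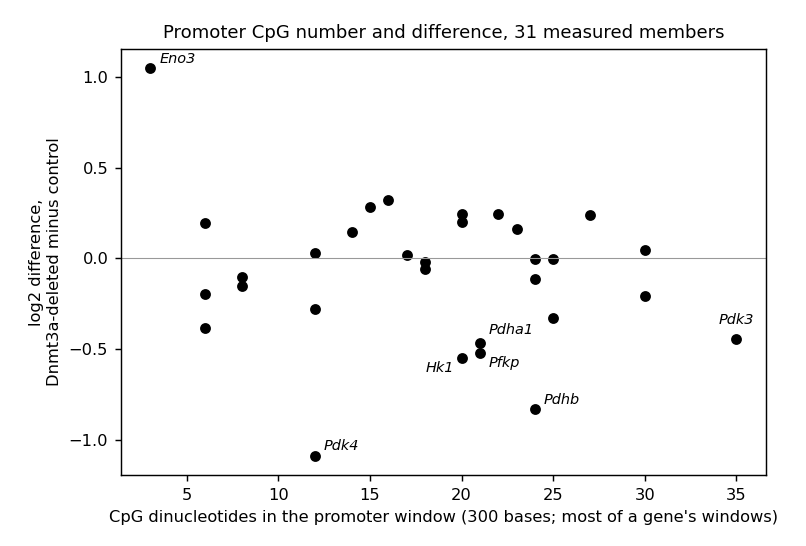
Number of CpG dinucleotides in the promoter window (x axis, the window with the most for genes that have several) against the log2 difference (y axis, Dnmt3a-deleted minus control) of the 31 measured members, 1 point each. Eno3, with 3 CpGs, is at the top left, and Pdk3, with 35, is the furthest right at -0.44, and the points between 6 and 30 CpGs lie on both sides of 0.

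The core of the hypoxia response element, ACGTG read on both strands (CACGT on the other), was counted in the same windows, because many glycolytic genes are known targets of hypoxia-inducible factor. It was present in 22 of 58 member windows (37.9%), against 19.6% of all windows, with 5 matches in 1 Ldha window, the most of any measured member. The motif itself contains a CpG, and member windows held a median of 15.5 CpGs against 7 over all windows. The shares were not adjusted for this, and overlapping windows of 1 gene were counted separately, so they are not read as an enrichment. The windows of Eno3, Pdk4 and Tpi1 held no match and that of Pdhb held 1. A match describes the letters of the window alone.

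Transporters and neighbouring pathways were read from lists chosen with earlier results of these data known. Of 13 hexose transporters 9 were measured and 0 passed, with 6 higher, 3 lower and a median of 0.11. Without Dnmt3a-deleted replicate 3 the counts were 4 higher and 5 lower and the median -0.05. Slc2a1, the widespread glucose transporter GLUT1, was at 11.02, 10.71 and 10.75 in Dnmt3a-deleted and 10.79, 11.05 and 11.30 in control mucosa, or -0.22 ± 0.19. Slc2a3, the high-affinity transporter of neurons and leukocytes, was at 5.53, 5.61 and 5.48 against 5.93, 6.18 and 5.70, a difference of -0.40 ± 0.17 with no overlap. Slc2a6, also known from myeloid cells, was at -1.06 ± 0.46, and Slc5a9, a sodium-coupled sugar transporter, at 0.43 ± 0.33.

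Leukocyte markers lay lower beside them. T and NK cell markers were lower for 7 of 8 measured genes, with a median of -1.16 and summed intensities of 3340 to 4976 in Dnmt3a-deleted and 4044 to 7404 in control mucosa, and Cd8a and Gzmb on no array. Myeloid markers were lower for 6 of 8, with a median of -0.76 and sums of 1278 to 2342 against 1911 to 7143. Their part in the differences of Slc2a3 and Slc2a6 was not tested.

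Of 9 carriers of pyruvate, lactate and butyrate, or their partners, 6 were measured and 0 passed, with 2 higher, 4 lower and a median of -0.07, and with 4 higher, 2 lower and a median of 0.05 without deleted replicate 3. Slc16a3, the lactate exporter MCT4, was at 5.64, 5.61 and 5.46 in Dnmt3a-deleted and 5.43, 5.35 and 5.23 in control mucosa, a difference of 0.23 ± 0.15 with no overlap. Emb, a chaperone of such carriers, was at -0.73 ± 0.35, also with no overlap, detected on 1 Dnmt3a-deleted and 3 control arrays, and its highest value was 6.78 in control replicate 3. Bsg, the chaperone basigin, was at -0.18 ± 0.30 and Slc5a12, a sodium-coupled lactate carrier, at -0.09 ± 0.20; without that replicate they were at 0.17 and 0.06.

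Among 33 other enzymes of sugar metabolism 21 were measured, with 16 higher, 5 lower, a median of 0.14 and 0 past the test; without deleted replicate 3 the counts were 13 and 8 and the median 0.07. Galt, of galactose breakdown, was at 10.03, 10.16 and 10.13 in Dnmt3a-deleted and 9.71, 9.99 and 9.58 in control mucosa, a difference of 0.35 ± 0.17 with no overlap. Gpd1, glycerol phosphate dehydrogenase, was at 0.36 ± 0.21 and Pcx, pyruvate carboxylase, at 0.38 ± 0.23. Hkdc1, a hexokinase-like protein of epithelia, was at 7.83, 9.49 and 7.19 against 9.53, 9.56 and 8.26, or -0.94 ± 0.60, and -0.46 without deleted replicate 3. Deleted replicates 1 and 3 lay below all controls and replicate 2 among them.

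Downstream of pyruvate, 5 of 6 other proteins of the pyruvate dehydrogenase system were measured, at a median of 0.07 (0.03 without deleted replicate 3) with 0 past the test. Pdp2, a phosphatase that switches the complex on, was at 0.48 ± 0.36, and 0.06 without deleted replicate 3. Pdp1, its counterpart, was at -0.70 ± 0.65, and -0.40 without that replicate, its highest value being 8.53 in control replicate 3. Pdpr, the phosphatase regulator, was at -0.15 ± 0.24 and Lias, which makes the lipoate cofactor, at 0.16 ± 0.27, and both signs turned without deleted replicate 3, to 0.04 and -0.14.

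The TCA cycle list had 20 of 23 genes measured, 10 higher and 10 lower, a median of 0.01 and 0 past the test, and 13 higher and 7 lower with a median of 0.02 without deleted replicate 3. Fh1, fumarase, was at 10.85, 10.78 and 10.25 in Dnmt3a-deleted and 11.02, 10.92 and 11.23 in control mucosa, a difference of -0.43 ± 0.21 with no overlap, and -0.24 without that replicate. Ogdh, of the oxoglutarate dehydrogenase complex, was at 10.93, 10.93 and 11.39 against 10.91, 10.71 and 10.51, or 0.37 ± 0.20, with no overlap in the other direction, and 0.22 without it. Suclg2 and Sdhb, subunits of succinyl-CoA ligase and succinate dehydrogenase, were at -0.38 ± 0.21 and -0.28 ± 0.18, the first at -0.18 without it.

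Of 21 genes of the hypoxia response 19 were measured, 11 higher and 8 lower, with a median of 0.02 and 0 past the test. Without Dnmt3a-deleted replicate 3, 7 were higher and 12 lower, with a median of -0.08. Hif1a, the inducible factor itself, was at 6.68, 6.52 and 5.28 in Dnmt3a-deleted and 6.68, 6.62 and 7.86 in control mucosa, or -0.89 ± 0.45, and -0.45 without that replicate. Its difference came from the lowest value, in deleted replicate 3, and the highest, in control replicate 3. Ndrg1, a stress protein of differentiated epithelium, was at 9.81, 10.55 and 9.99 against 10.90, 10.76 and 10.48, or -0.60 ± 0.23, with an unadjusted p of 0.0322. Car12, a membrane carbonic anhydrase, was at -0.79 ± 0.45 (-0.38 without deleted replicate 3) and Egln3, an oxygen sensor, at 0.40 ± 0.29.

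Regulators of carbon source use numbered 16 measured of 18, 7 higher and 9 lower, with a median of -0.01 and 0 past the test, and 8 higher and 8 lower without deleted replicate 3. Mlxipl, the glucose-sensing factor ChREBP, was at 7.63, 8.15 and 8.10 in Dnmt3a-deleted and 7.44, 6.95 and 7.64 in control mucosa. Deleted replicates 2 and 3 lay above all controls and replicate 1 just under control replicate 3, and the difference was 0.62 ± 0.24 (unadjusted p of 0.0314). Arrdc4, an arrestin known as a ChREBP family target, was on the other side, at -0.92 ± 0.42, and -0.56 without that replicate. Pparg, a lipid-sensing receptor of mature colonocytes, was at 10.08, 11.21 and 9.16 against 11.44, 10.70 and 10.58, or -0.75 ± 0.49, and -0.26 without deleted replicate 3. Prkaa2, a catalytic subunit of the energy sensor AMPK, was at -0.66 ± 0.54, and 0.02 without that replicate.

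**Figure D5:**
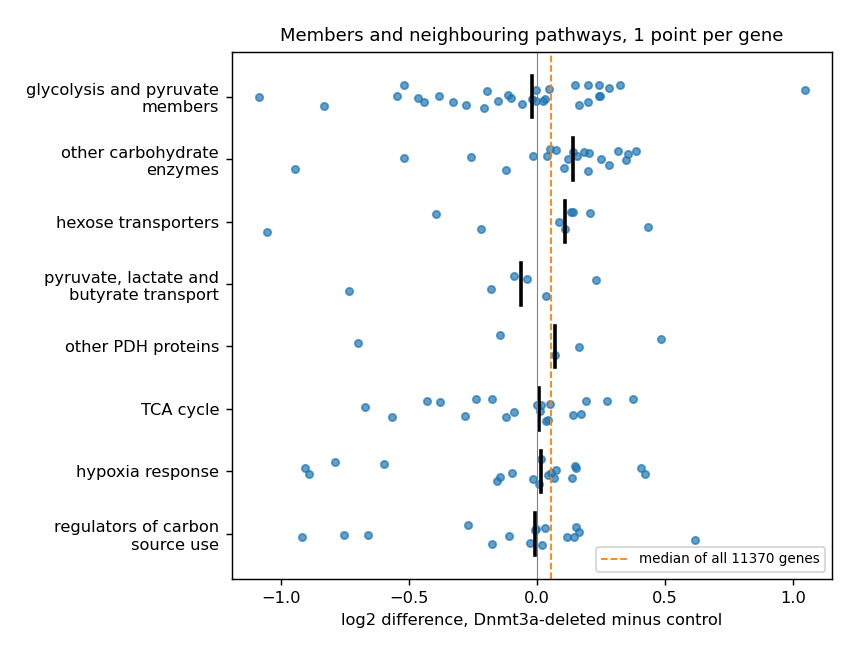
Log2 difference (x axis, Dnmt3a-deleted minus control) of each measured gene (1 point) in the glycolysis and pyruvate set and in 7 neighbouring lists, with the median of each list as a black bar and the median of all 11370 genes, 0.05, as a dashed line. The bars run from -0.07 to 0.14 and all lists have points on both sides of 0.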

How the data were processed

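Expression was measured in colon mucosa of 6 mice, 3 Dnmt3a-deleted and 3 control, each on 1 Illumina array. Per the labels' protocols, column-purified, DNase-treated total RNA was amplified to biotinylated cRNA. The deposited unprocessed table holds a mean bead intensity per probe with background left in, and a deposited detection p-value, which from the values is 2-sided (small also for 6320 to 7410 probes an array that are dimmer than background). The authors also deposited normalized intensities (how: not given in the sources used here), linear and uncentred from their values, with column medians of 92.88 to 94.77. Scanner software, slides and dates were not used here.

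Here, intensities were corrected with limma 3.58.1 (R 4.3.3; normexp, saddle-point method, offset 16), quantile normalized and put on the log2 scale. Probes detected (p under 0.05 and brighter than the array's background level, the median of probes whose p exceeds 0.97) on at least 3 arrays were kept, 21183 of 45135. A gene is its kept probe of highest mean. Symbols came from the platform annotation, with 34773 probes of 1 symbol, 18 of several (unnamed) and 10344 not named here; 34695 were updated by gene number with RefSeq GRCm38.p6. Groups were compared with lmFit and eBayes, 2-sided, without covariates, adjusted over all 11370 genes, and the fit was tested on simulated data. For a probe detected in 1 group alone, the fold is a bound: the brighter group's mean against the dimmer group's, each dimmer value taken as the probe's own or the lowest detected value on that array, whichever is higher. It is a bound on the measured means and allows for no spread between mice. An undetected value can exceed the lowest detected value of its array, as for Hk3 and the second Pkm probe, so the bound is not firm.

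The members, lists and tests were chosen with earlier results of these data known. From each neighbouring list the genes past the threshold and up to 4 of smallest p are named. Deviations of same-numbered mice from their group means correlated at -0.125, -0.11 and 0.0379, so the numbers do not pair mice. Alternatives changed background correction, source of values, normalization, filter, probe rule, weights and covariates, or left out an array.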

Additional observations from a re-analysis of the deposited data

How the results depend on the processing

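Across 18 alternatives, 488 of 553 member results kept their direction and side of the threshold, 65 reversed in sign, and 0 members passed an adjusted p under 0.05 by limma. The 488 include settings that changed the filter, tested all kept probes or added the replicate block. Those settings reused a member's probe values, so its sign could not reverse there and they are no evidence of stability. At an unadjusted p under 0.05 the members numbered 0 (without control replicate 1, where 318 of all genes had such a p) to 8 (array weights, where 2221 genes had), out of 11370 genes. Genes called higher, 1 over all arrays, were 0 without background correction and 7 with array weights, and genes called lower, 0, were 8 with array weights. Non-overlapping members, 3 (14.5% of all genes), were 1 with median scaling (12.9% of genes), 7 of 48 probes with all kept probes tested (14.4% of probes), and 7 of 30 with Dnmt3a-deleted replicate 3 left out before normalization (21.9% of genes). The members' median, -0.02, was -0.22 with median scaling (which put the median of all genes at -0.05, against 0.05) and 0.053 with that replicate left out before normalization. Leaving out 1 array at a time gave 0 to 1 genes called higher (0 without control replicate 2), 0 called lower, 5 to 7 non-overlapping members (22 to 32% of genes) and a members' median of -0.068 to 0.061. The array weights leaned most on deleted replicate 1 (6.04) and least on deleted replicate 3 (0.154). They turned Hk1 to 0.047, Pgk1 to 0.097, Pgam1 to 0.21, Pklr to 0.14, Ldhb to -0.32, Dlat to 0.023, Pdk1 to 0.031, Fbp2 to -0.028, Pgd to -0.0042, Taldo1 to -0.16 and Tkt to -0.0079. Leaving out replicate 3 before normalization turned Hk1 to 0.046, Pfkp to 0.14, Aldoa to 0.15, Pgam1 to 0.29, Pklr to 0.10, Ldhb to -0.11, Pdk1 to 0.10 and Tkt to -0.0060. The authors' values turned Aldoa to 0.0061 and Ldhb to -0.0048, and the mean of probes turned Tpi1 to -0.063, Pgam1 to 0.068 and Tkt to -0.036. Sex as a term turned Aldoc to 0.036, Gapdh to -0.014, Ldha to -0.020, Dlat to 0.012, Dld to 0.076 and Pdk2 to 0.030. Loess turned Gapdh to -0.062, Ldha to -0.039 and Ldhb to -0.014, and median scaling turned Gapdh to -0.12, Ldha to -0.091, Ldhb to -0.086 and Pfkfb2 to -0.031. Leaving out 1 array at a time, the reversing members ran from -0.88 to 0.046 for Hk1, -0.53 to 0.0093 for Pfkm, -0.92 to 0.14 for Pfkp, -0.21 to 0.15 for Aldoa, -0.24 to 0.11 for Aldoc, -0.068 to 0.10 for Gapdh, -0.26 to 0.0010 for Pgk1, -0.47 to 0.30 for Pgam1, -0.29 to 0.10 for Pklr, -0.039 to 0.17 for Ldha, -0.10 to 0.19 for Ldhb, -0.074 to 0.062 for Dlat, -0.26 to 0.070 for Dld, -0.57 to 0.10 for Pdk1, -0.14 to 0.16 for Pdk2 and -0.0055 to 0.40 for Tkt. The causes were not tested. With the replicate number as a block the differences were the same, 509 genes had an unadjusted p under 0.05 against 593, the smallest member adjusted p was 0.758 by limma, and no call changed. Slides were not modelled, since no slide label was used here. Dim probes, such as those of Pck1, Fbp1 and Pgd, are limited by signal over background.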
